A study of Bos taurus with 32 samples.

Results

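The RNA modification N6-methyladenosine (m6A) was examined site by site in transcripts of the RNF and TRIM genes, in bovine oocytes and preimplantation embryos. These families are named for the RING finger and the tripartite motif, and include many ubiquitin ligases. The members are the adenosines listed under a symbol that begins with RNF or TRIM and a number, other than RNF20, with a score of at least 0.1 in germinal vesicle (GV) oocytes. This gave 514 of the 60417 adenosines called at GV, in 52 of the 6087 genes with a symbol, 337 sites in 35 RNF genes and 177 in 17 TRIM genes. RefSeq lists 137 such protein-coding symbols for cattle, and 51 of the 52 genes were among them (TRIM26 was not found by its symbol). The lowest GV score of a member was 0.1002, and the highest GV score of a listed RNF or TRIM site below the threshold was 0.0944. Since the GV score chose the members, GV counts are given as a description.

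The map was made by m6A-SAC-seq, in which m6A is tagged with an allyl group and shows as a mutation once the RNA is copied to DNA. The stages were immature GV oocytes, mature metaphase II (MII) oocytes, embryos of 2, 4, 8 and 16 cells, morulae and blastocysts, each represented by 2 input and 2 treated libraries, 32 in all, from 200 cells per stage and replicate. Oocytes came from follicles of 3 to 5 mm in slaughterhouse ovaries, were matured for 22 to 23 h and fertilised in vitro for 18 h with frozen Holstein semen, and embryos were grown until day 7.5. No genotype or treatment differs between the stages, the breed of the oocyte donors is not stated, each library pools cells, and treated libraries from the 2-cell stage on carry titles that say oocytes although their cell type is given as embryo.

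The deposited table holds 1 score per adenosine and stage, with no arm, replicate or read depth. The list of 65535 adenosines ends partway through minus-strand sites that first had a call in MII oocytes, and other sites first called at MII or later were not analysed here. Counts at later stages are therefore counts of GV-called sites that were called again, and not of all sites of a gene, except where sites called at MII and not at GV are named. Without replicates no value has an error between replicates, no test between stages could be made, and every difference below is a description of these pooled columns. A score of at least 0.1 counts as a call, and exact 95% binomial intervals cover only the counting of sites, which are not independent within a gene. A score of 0 can stand for no methylation, for little RNA or for few reads, and these cannot be told apart. Oocyte markers carried 141 called sites at GV and 0 in blastocysts, in 8 of 9 genes, and cumulus and granulosa markers carried 31 at GV and 0 from the 16-cell stage on, in 3 of 7 genes. Of 5 trophectoderm markers 1 had a GV-called site, which was called at no later stage.

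As background, RING finger proteins bring a ubiquitin-loaded conjugating enzyme next to a substrate, so that ubiquitin is passed from one to the other. TRIM proteins carry the RING at the front of a tripartite motif followed by a variable end that binds the target. In oocytes and cleaving embryos, ubiquitin ligases take part in the removal of maternal proteins, in chromatin regulation and in the response to DNA damage. The roles named below are known mainly from human and mouse.

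The only sequence listed for a site is its 5-base context on the transcript. The contexts below belong to the sites called at the most stages and to those with the 5 highest GV scores, to show which contexts the longest called and the highest scored sites have. The scores differ by context, so their order is not an order of methylation. They are written 5′ to 3′ with the scored adenosine in capitals, and positions are those of the deposited table, whose genome build is not given in the sources used here.
RNF4 (chromosome 6, position 116191640, 3′ untranslated region, 7 stages): agAct
RNF10 (chromosome 17, position 62849461, 3′ untranslated region, 7 stages): tgAct
RNF141 (chromosome 15, position 42177308, coding, 6 stages): agAtg
TRIM28 (chromosome 18, position 65772681, coding, 6 stages): tgAag
TRIM37 (chromosome 19, position 9966618, coding, GV score 43.6): ctAgc
TRIM59 (chromosome 1, position 107043007, 3′ untranslated region, GV score 10.4): ttAgt
RNF146 (chromosome 9, position 24001881, coding, GV score 8.56): ggAca
TRIM13 (chromosome 12, position 19460157, coding, GV score 8.42): ggAca
TRIM59 (chromosome 1, position 107041762, coding, GV score 7.42): ggAca

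Over the family, 197 of the 514 sites had a call in MII oocytes, 38.3% (interval 34.1 to 42.7), beside 34.1% of all GV-called sites. At the 2-cell stage 39 were called, 7.59% (5.45 to 10.2) beside 7.39%. The 4-cell stage had 146, 28.4% (24.5 to 32.5) beside 22.7%, and the 8-cell stage 60, 11.7% (9.03 to 14.8) beside 9.32%. From the 16-cell stage on the family lay under the percentage of all sites. It had 17 calls at the 16-cell stage, 3.31% (1.94 to 5.24) beside 6.01%, 16 in morulae, 3.11% (1.79 to 5.01) beside 4.42%, and 25 in blastocysts, 4.86% (3.17 to 7.10) beside 7.64%. The interval of the family lay above the value of all sites at the 4-cell stage, below it at the 16-cell and blastocyst stages, and held it at the other stages. With a score of at least 0.2 the 4-cell interval, 17.6 to 27.3, held the 17.8% of all sites, as did that of DRACH sites (22.1 to 34.7 around 25.8%) and that without RNF8 (22.0 to 30.1 around 22.7%). In blastocysts the interval of DRACH sites, 2.64 to 9.18, held the 9.09% of all such sites. The MII interval depended on the threshold as well. It lay above all sites with a score of at least 0.2 (30.4 to 41.5 beside 30.0%). The same was so with any score above 0 (41.0 to 49.7 beside 38.9%), while that of DRACH sites held their value (44.0 to 57.9 around 45.3%). With every gene weighted equally, the family was at 20.9% in 4-cell embryos beside 14.3% over all genes, and at 2.89% in blastocysts beside 8.23%.

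RNF and TRIM genes had 38.9% and 37.3% of their sites called at MII, and their intervals lay apart only at the 4-cell stage. At the 4-cell stage 120 of 337 RNF sites were called, 35.6% (30.5 to 41.0), and 26 of 177 TRIM sites, 14.7% (9.83 to 20.8), on either side of the 22.7% of all sites. The 2-cell values were 9.50% (6.59 to 13.1) for RNF and 3.95% (1.60 to 7.98) for TRIM genes, and the 8-cell values 14.2% (10.7 to 18.4) and 6.78% (3.55 to 11.5). In 16-cell embryos, morulae and blastocysts the RNF values were 2.97%, 2.08% and 3.56% and the TRIM values 3.95%, 5.08% and 7.34%, with overlapping intervals. RNF8, RNF34, RNF114 and RNF10 held 60 of the 120 RNF calls at the 4-cell stage, so the RNF value there rests largely on these genes. The difference between both subfamilies was not tested, and 8 of the 13 TRIM calls in blastocysts lay in TRIM28.

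**Figure D1:**
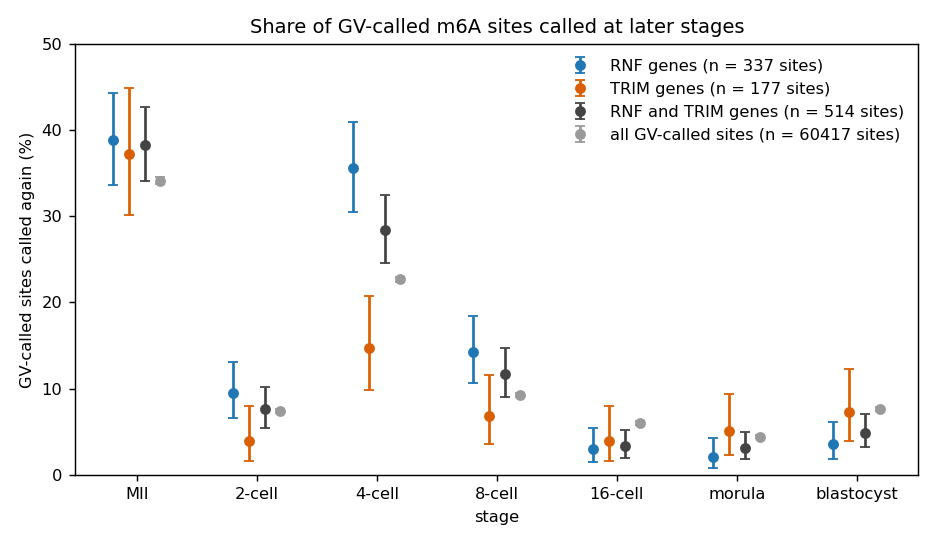
Percentage of GV-called sites that were called again (vertical axis) at each later stage (horizontal axis), for RNF genes, TRIM genes, both together and all GV-called sites; bars are exact 95% binomial intervals over sites. RNF and TRIM genes lie together at MII and apart at the 4-cell stage, at 35.6% and 14.7%, and the family lies below all sites from the 16-cell stage on.

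Calls were spread unevenly over the genes. The 20 genes with at least 10 GV-called sites held 360 of the 514 sites. Of these genes 18 had no call at the 16-cell stage, beside 65.3% of all 1893 genes with as many GV sites, 14 had none in morulae, beside 75.6%, and 12 had none in blastocysts, beside 63.7%. Their percentages at MII ran from 16.7 to 62.5, with a median of 39.3 beside 36.4 over all such genes, and 11 of the 20 lay above that median.

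**Figure D2:**
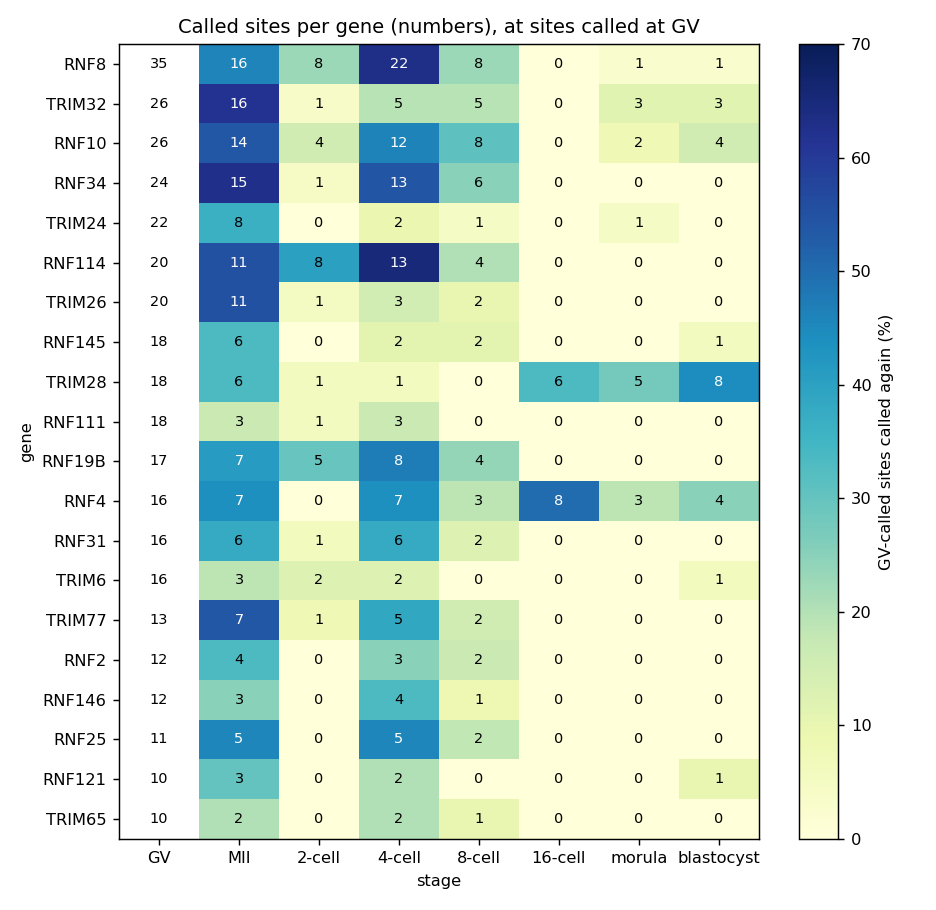
Number of called sites (digits) in each of the 20 genes with at least 10 GV-called sites (rows) at the 8 stages (columns), counted at GV-called sites; the colour gives the percentage of the gene's GV-called sites. RNF8 and RNF114 have 22 and 13 calls at the 4-cell stage, and of these 20 genes only RNF4 and TRIM28 have calls at the 16-cell stage.

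Among ligases of chromatin and DNA repair, RNF8 had the most sites of the family. RNF8, which marks histones around broken DNA, is listed as ENSBTAG00000008321 with sites between positions 11245466 and 11282710 of chromosome 23, plus strand. It had 35 GV sites, of which 16 were called at MII, 8 in 2-cell, 22 in 4-cell, 8 in 8-cell, 0 in 16-cell embryos, 1 in morulae and 1 in blastocysts. A stretch of 686 bases of coding sequence (chr23:11265747-11266432) held 19 of the 35 sites and 7 of the 8 calls of the 2-cell stage. In this stretch 11 sites were called at MII, 12 in 4-cell and 5 in 8-cell embryos, while the other 16 sites gave 5, 10 and 3 calls. RNF168, which acts after RNF8 at broken DNA, had 6 GV sites, none of them called again, and RNF169, a reader of the same mark, had 9 GV sites, of which 3 were called at MII and 4 in 4-cell embryos.

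RNF4 and TRIM28 were the genes of the family with most calls at the 16-cell stage, 14 of its 17. Without both genes the family had 0.625% of its sites called in 16-cell embryos, 1.67% in morulae and 2.71% in blastocysts. RNF4 (ENSBTAG00000027453, minus strand) attaches ubiquitin to proteins that carry SUMO. It had 16 GV sites, of which 7 were called at MII, 0 in 2-cell, 7 in 4-cell, 3 in 8-cell, 8 in 16-cell embryos, 3 in morulae and 4 in blastocysts. Of its GV sites 11 lay in the 3′ untranslated region, as did 6 of the 8 sites called at the 16-cell stage and each of the 4 called in blastocysts. The 8 sites called at the 16-cell stage all had a higher score there than at GV. Over all GV-called sites this was so for 2239 of the 3632 called at the 16-cell stage. Of the 8 RNF4 sites 2 had been called at the 8-cell stage. The RNF4 site at position 116191640 (agAct above) scored 0.668 at GV, 0.494 at MII, 0 in 2-cell, 0.202 in 4-cell, 0.365 in 8-cell, 0.904 in 16-cell embryos, 0.861 in morulae and 1.38 in blastocysts. The blastocyst score was the highest and the 2-cell score the lowest.

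TRIM28 (ENSBTAG00000006422, plus strand), the corepressor that silences chromatin for zinc finger proteins with a KRAB domain, had 18 GV sites, each of them in coding sequence. Of these, 6 were called at MII, 1 in 2-cell, 1 in 4-cell, 0 in 8-cell, 6 in 16-cell embryos, 5 in morulae and 8 in blastocysts. All TRIM28 scores at GV lay below 0.2, the highest being 0.198, so that none of its sites would be a member at a threshold of 0.2, where RNF4 kept 9 GV sites and 5 of its 16-cell calls. The TRIM28 site at position 65772681 (tgAag above) scored 0.107 at GV, 0 at MII, 0.819 in 2-cell, 0.487 in 4-cell, 0 in 8-cell, 0.252 in 16-cell embryos, 0.208 in morulae and 0.158 in blastocysts. It gave the only TRIM28 call in 2-cell embryos and the only one in 4-cell embryos.

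TRIM24 and TRIM33 are relatives of TRIM28 that read histone tails with a PHD finger and a bromodomain, and each had 1 call after the 8-cell stage. TRIM24 had 22 GV sites, of which 8 were called at MII, 0 in 2-cell, 2 in 4-cell, 1 in 8-cell, 0 in 16-cell embryos, 1 in morulae and 0 in blastocysts. TRIM33 had 8 GV sites, of which 2 were called at MII, 1 in 4-cell embryos and 1 in blastocysts. The same coding site (position 28972034) gave its 4-cell and blastocyst calls. This site scored 4.56 at GV, 5.88 at MII, 5.07 in 4-cell embryos and 5.45 in blastocysts. Its context was taAgc, and scores differ by context. RNF2, the catalytic ligase of Polycomb repressive complexes, had 12 GV sites, of which 4 were called at MII, 3 in 4-cell and 2 in 8-cell embryos and none at the others. RNF40, the partner of RNF20 in histone ubiquitination, had 8 GV sites, of which 2 were called at MII, 1 in 2-cell and 2 in 4-cell embryos.

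**Figure D3:**
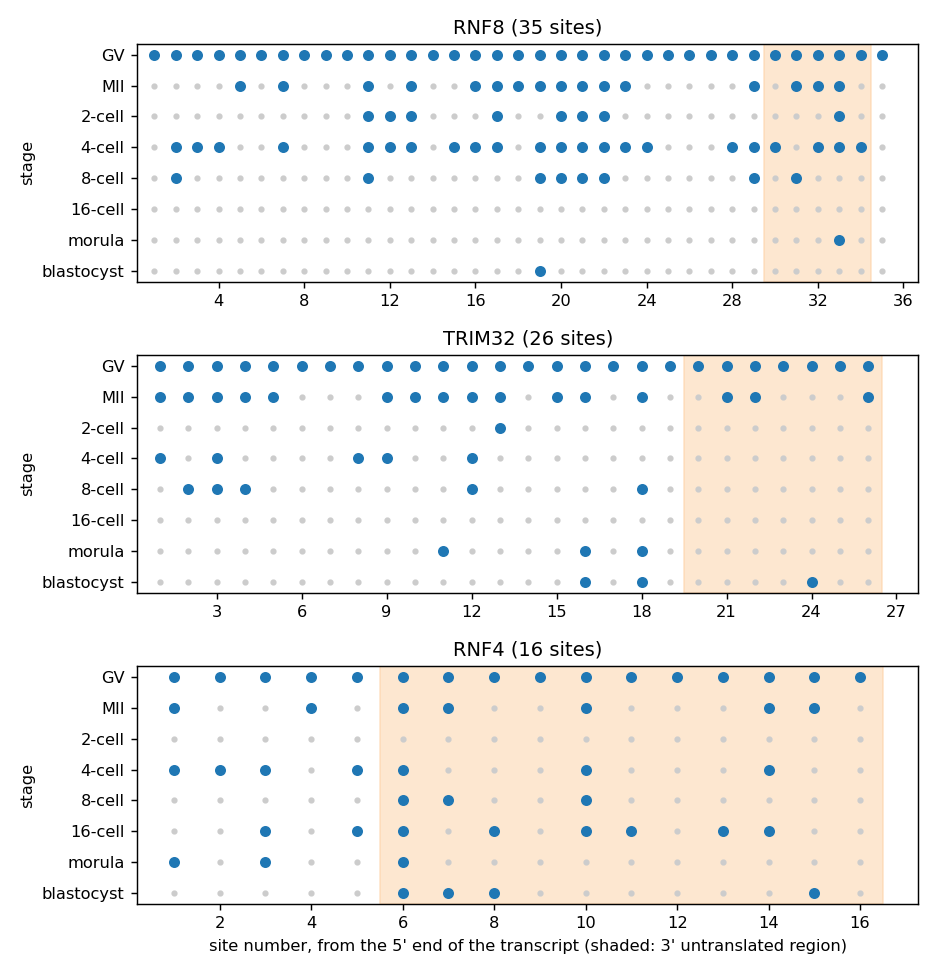
Called (large blue points) and not called (small grey points) GV sites of RNF8, TRIM32 and RNF4, numbered from the 5′ end of the transcript (horizontal axis), at the 8 stages (vertical axis); shading marks the 3′ untranslated region. RNF8 has 22 calls in 4-cell and 0 in 16-cell embryos, whereas RNF4 has 0 in 2-cell and 8 in 16-cell embryos, 6 of them in the shaded region.

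Ligases that act on ribosomes had 43 GV sites in 3 genes, each of them an RNF gene. Of these sites 17 were called at the 4-cell stage, 39.5% (24.98 to 55.6) beside 22.7% of all sites and 35.6% of RNF sites. RNF10 gave 12 of the 17 calls and RNF14 gave 0. RNF10, which ubiquitinates proteins of the small ribosomal subunit, had 26 GV sites, of which 14 were called at MII, 4 in 2-cell, 12 in 4-cell, 8 in 8-cell, 0 in 16-cell embryos, 2 in morulae and 4 in blastocysts. Its site at position 62849461 (tgAct above) scored 0.221 at GV, 0.149 at MII, 0.455 in 2-cell, 0.368 in 4-cell, 0.423 in 8-cell, 0 in 16-cell embryos, 0.547 in morulae and 0.382 in blastocysts. Only the 16-cell score of this site was under the threshold. RNF25 and RNF14, which act together at stalled ribosomes, differed in their counts. RNF25 had 11 GV sites, of which 5 were called at MII, 5 in 4-cell and 2 in 8-cell embryos, and RNF14 had 6, of which 2 were called at MII and 1 in blastocysts, at position 53044844 with a score of 0.148 at GV and 0.741 in blastocysts.

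**Figure D4:**
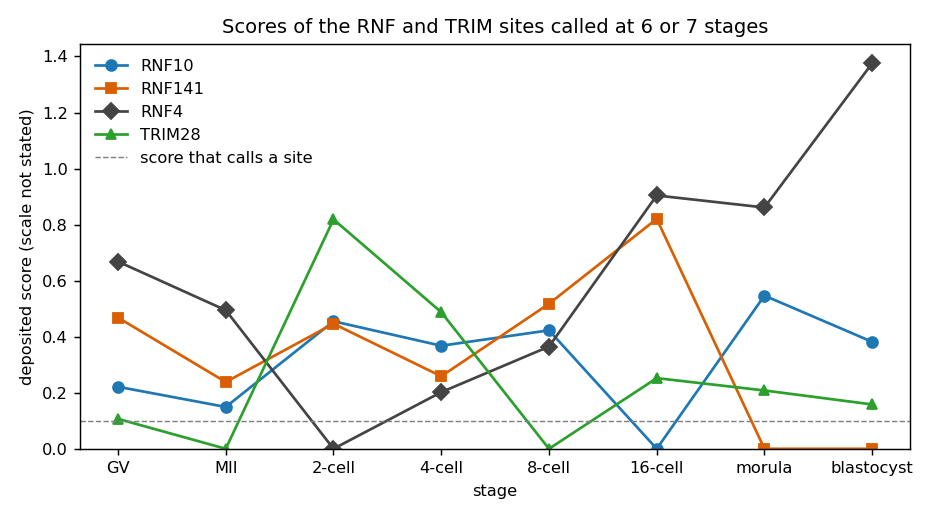
Deposited scores (vertical axis, scale not stated) over the 8 stages (horizontal axis) of the 4 RNF and TRIM sites called at 6 or 7 stages; the dashed line is the score of 0.1 that calls a site, and a value of 0 can mean no estimate. The RNF4 site reaches 1.38 in blastocysts, and the RNF141 site is at 0 in morulae and blastocysts.

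The ligases of signalling pathways had 84 GV sites in 7 genes, and no call at the 16-cell, morula or blastocyst stage, where 6.01%, 4.42% and 7.64% of all sites were called. Few late calls were not particular to this group, since genes of innate immunity were at 1.33%, 0% and 1.33% at these stages. Genes of chromatin and DNA repair were at 10.4%, 7.46% and 10.4%, and the whole family at 3.31%, 3.11% and 4.86%. Without RNF4 and TRIM28, a choice made after the data were seen, the family was at 0.625%, 1.67% and 2.71%. A count of 0 of 84, read as up to 3 counts, allows a share of up to 3.57%, and the exact interval reaches 4.30%. This group, like the other role groups, was revised after the table was seen. RNF34, which binds caspases, had 24 GV sites, of which 15 were called at MII, 1 in 2-cell, 13 in 4-cell and 6 in 8-cell embryos, and 11 of its GV sites lay within 568 bases of the 3′ untranslated region (chr17:53773072-53773639). RNF31, the catalytic subunit of the complex that builds linear ubiquitin chains, had 16 GV sites, of which 6 were called at MII, 1 in 2-cell, 6 in 4-cell and 2 in 8-cell embryos. RNF146, which recognises proteins with poly-ADP-ribose such as axin, had 12 GV sites, of which 3 were called at MII, 4 in 4-cell and 1 in 8-cell embryos. RNF111, which enhances signalling by TGF-beta and Nodal, had 18 GV sites, of which 3 were called at MII, 1 in 2-cell and 3 in 4-cell embryos.

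For genes on the minus strand of chromosomes 10 to 19 the order of the table shows the MII list in full, so that sites called at MII and not at GV can be counted as well. There, outside large-subunit ribosomal protein genes, 33.4% of the 11505 GV sites were called at MII and 53.2% of the 8217 MII sites were not called at GV. The 10 member genes in this window had 103 GV sites, 37 of which were called at MII, 35.9%. Together with RNF166, which had no GV call and 2 sites at MII, these genes had 86 sites at MII, 49 of them not called at GV, 57.0%.

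RNF111 had 18 GV and 19 MII sites, 3 of them shared. Of its 16 sites called at MII and not at GV, 12 lay in coding sequence, 3 in the 3′ and 1 in the 5′ untranslated region, and each of the 16 was listed at 0 at GV. Among genes of the window with at least 10 GV sites, 10.6% had more sites at MII than at GV, and of the 4 members RNF111 was the only one. RNF34 shared 15 of 24 GV and 20 MII sites, RNF31 shared 6 of 16 and 12, and TRIM6, which makes free ubiquitin chains in interferon signalling, shared 3 of 16 and 9. RNF139, a ligase of the endoplasmic reticulum that degrades sterol regulators, had 9 GV and 10 MII sites, 6 of them shared.

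**Figure D5:**
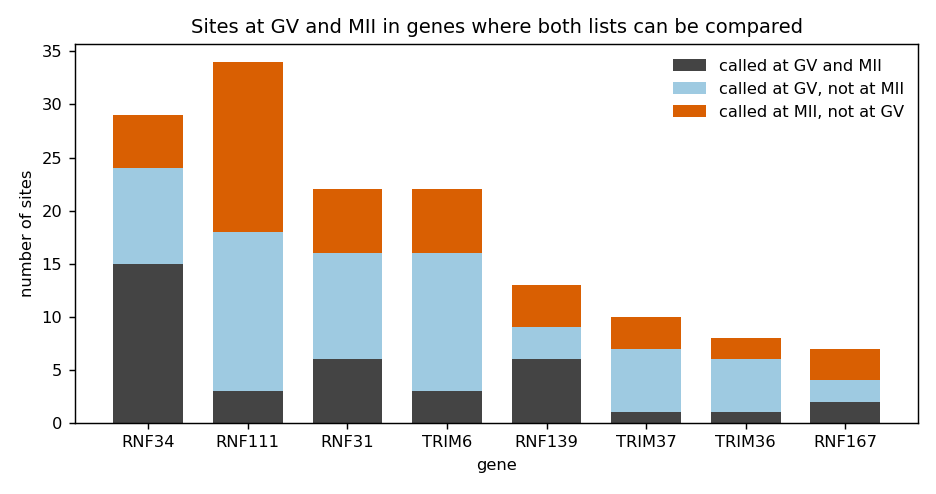
Number of sites (vertical axis) called at both GV and MII, at GV and not MII, and at MII and not GV, for the 8 member genes (horizontal axis) with at least 4 GV sites on the minus strand of chromosomes 10 to 19. RNF111 has 3 shared sites, 15 at GV and 16 at MII, and RNF34 has 15 shared sites.

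Genes of innate immunity had 75 GV sites in 7 genes, of which 11 were called at the 2-cell stage, 14.7% (7.56 to 24.7) beside 7.39% of all sites. These 11 calls lay in 3 of the 7 genes, 8 of them in RNF114, so the group value rests mainly on 1 gene. At the 16-cell and blastocyst stages 1 each was called, 1.33% (0.03 to 7.21) beside 6.01% and 7.64%. This interval held the 16-cell value of all sites and lay below their blastocyst value. RNF114, which responds to interferon, had 20 GV sites, of which 11 were called at MII, 8 in 2-cell, 13 in 4-cell and 4 in 8-cell embryos and none later. RNF114 and RNF8 had 8 calls each at the 2-cell stage, and together with RNF19B (5) and RNF10 (4) they held 25 of the 39 calls of the family there. TRIM26, a regulator of interferon induction, had 20 GV sites, of which 11 were called at MII but 1 in 2-cell, 3 in 4-cell and 2 in 8-cell embryos. TRIM65, which acts in the sensing of viral RNA, had 10 GV sites, of which 2 were called at MII, 2 in 4-cell and 1 in 8-cell embryos. Of its 16 GV sites TRIM6 had 2 calls each at the 2-cell and 4-cell stages and 1 in blastocysts, at position 47928040 with a score of 0.282 at GV and 0.990 in blastocysts.

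Ligases of the endoplasmic reticulum and other membranes had 70 GV sites in 12 genes, of which 25 were called at MII, 35.7% beside 34.1% of all sites. At the 2-cell stage 1 was called, 1.43% (0.04 to 7.70) beside 7.39%. The 4-cell stage had 9, 12.9% (6.05 to 23.0) beside 22.7%, and the 8-cell stage 2, 2.86% (0.35 to 9.94) beside 9.32%. Each of these intervals held the value of all sites. RNF145, which responds to sterols, had 18 GV sites, of which 6 were called at MII, 2 in 4-cell, 2 in 8-cell embryos and 1 in blastocysts. RNF121, a ligase of the secretory pathway, had 10 GV sites, of which 3 were called at MII, 2 in 4-cell embryos and 1 in blastocysts. RNF139 and TRIM13, both anchored in the endoplasmic reticulum, had 9 GV sites each, of which 6 and 4 were called at MII.

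TRIM32, a ligase with NHL repeats that acts on actin and other muscle proteins, had 26 GV sites, of which 16 were called at MII, 1 in 2-cell, 5 in 4-cell, 5 in 8-cell, 0 in 16-cell embryos, 3 in morulae and 3 in blastocysts. Its 19 coding sites gave all 5 calls in 4-cell and all 5 in 8-cell embryos, and its 7 sites in the 3′ untranslated region gave 3 calls at MII and 1 in blastocysts. The coding site at position 105886668 scored 0.918 at GV, 0.532 at MII, 0 in 2-cell and 4-cell, 0.408 in 8-cell, 0 in 16-cell embryos, 1.06 in morulae and 0.477 in blastocysts. TRIM3, its relative with the same repeats, had 6 GV sites, of which 2 were called at MII and 1 in 4-cell embryos.

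RNF19B, a ligase with a RING-between-RING domain, had 17 GV sites, of which 7 were called at MII, 5 in 2-cell, 8 in 4-cell and 4 in 8-cell embryos, and TRIM77 had 13, 7, 1, 5 and 2 in the same order, both with none later. RNF141 had 5 GV sites, and its site at position 42177308 (agAtg above) scored 0.468 at GV, 0.238 at MII, 0.446 in 2-cell, 0.259 in 4-cell, 0.517 in 8-cell and 0.820 in 16-cell embryos, and 0 in morulae and blastocysts.

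The 32 genes with 9 or fewer GV sites held 154 sites, of which 44 were called at MII, 5 in 2-cell, 26 in 4-cell, 7 in 8-cell and 3 in 16-cell embryos. The 16-cell calls lay in RNF141, RNF167 and TRIM39, with 1 each, the only morula call in RNF126, and the blastocyst calls in TRIM33 and RNF14. No GV-called site was called again in RNF168 with 6 sites, in RNF13, RNF43, RNF130, RNF185 and TRIM8 with 2 each, or in RNF123, RNF170 and TRIM11 with 1 each. RNF13 had 3 and RNF43 had 2 sites called at MII that were not called at GV. The other genes of this size included RNF6, RNF40, RNF41, RNF122, RNF139, RNF144B, RNF169, RNF215, RNF216, RNF220, TRIM3, TRIM13, TRIM36, TRIM37, TRIM50 and TRIM59, with 1 to 9 GV sites each.

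Calls at different stages overlapped in part at the same adenosines. Of the 39 sites called at the 2-cell stage 29 were called at the 4-cell stage, 74.4% of the 2-cell and 19.9% of the 4-cell calls, beside 63.3% and 20.6% over all sites. The 4-cell and 8-cell stages shared 41 sites, 28.1% and 68.3% of their calls, beside 26.2% and 63.8%. The 8-cell and 16-cell stages shared 3 sites, 5.00% and 17.6% of their calls, beside 29.6% and 45.9% over all sites, and the 16-cell and blastocyst stages shared 4, 23.5% and 16.0%, beside 46.4% and 36.5%. Of the 17 calls at the 16-cell stage 14 lay in RNF4 and TRIM28, and TRIM28 had 0 calls at the 8-cell stage. The overlaps with the 16-cell stage therefore describe mainly these genes and not the family. Of the 25 sites called in blastocysts 10, in 6 genes, were called at no stage from the 2-cell to the morula stage, 40% beside 29.4% of all such sites. RNF4, RNF10, TRIM28 and TRIM32 held 19 of the 25 blastocyst calls and 13 of the 16 morula calls.

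Over the 8 stages, 239 member sites were called at GV only, 46.5% beside 52.0% of all GV-called sites, and 135 at 1 further stage. The number called at 5 stages was 15, at 6 stages 2 and at 7 stages 2, and no member site was called at all 8, which 0.414% of all GV-called sites were. At so low a share, a count of 0 does not set the family apart.

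Scores at sites called at both stages were compared by their log2 ratio, a difference and not a level. From GV to MII the median was -0.24 (order-statistic interval -0.32 to -0.09), beside a median of -0.11 over all sites. Of the 197 sites 72 were higher at MII, beside 8484 of 20625 over all sites. At the 4-cell stage the median against GV was -0.11 (-0.20 to -0.04), beside -0.06. The 25 blastocyst sites had a median of 0.40 (0.09 to 0.79), beside 0.19 over all sites. Of the 25 sites 19 were higher than at GV, beside 2875 of 4613 over all sites. Members enter these ratios only when their later score passed the threshold, and few sites lie behind the late ratios.

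By region, coding sequence held 355 of the 509 member sites with a listed region, 69.7% (65.5 to 73.7) beside 71.0% of all GV-called sites. The 3′ untranslated regions held 133, 26.1% (22.4 to 30.2) beside 22.9%, the 5′ untranslated regions 18 and introns 3. Coding sites made up 80.8% of TRIM and 63.9% of RNF sites, and the 3′ untranslated region held 17.5% and 30.7%. RNF114 had 15 of its 20 sites in the 3′ untranslated region, and RNF8 had 29 of 35 in coding sequence. At MII 39.2% of the coding and 38.3% of the 3′ untranslated sites of the family were called, beside 34.2% and 36.6% over all sites.

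The consensus motif DRACH has the adenosine between A or G and C, with any base but C in front and any but G behind. It surrounded 210 of the 506 member sites with a listed motif, 41.5% (37.2 to 45.9) beside 34.2% of all GV-called sites, with 49.2% in TRIM and 37.4% in RNF genes. DRACH made up 55.2% of the member sites called again at MII and 33.0% of the others, beside 44.5% and 28.7% over all sites. At MII 51.0% of the DRACH and 29.4% of the other member sites were called, beside 45.3% and 29.4% over all sites. At the 4-cell stage the values were 28.1% and 29.1%, beside 25.8% and 21.9%.

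Scores differed between 5-base contexts, and levels are therefore compared only within 1 motif. The 37 member sites with ggAca had a median GV score of 2.11 beside 1.45 over all such sites, and the 30 with ggAct had 0.586 beside 0.435. The 41 sites with agAct had a median of 0.302 beside 0.287 over all such sites, and the 38 with agAtg had 0.197 beside 0.208. At MII 21 of the 30 ggAct sites were called, beside 55.3% of all such sites, and 2 of the 18 tgAtg sites, 11.1% beside 29.1%. The TRIM37 site with ctAgc scored 43.6 at GV, 33.9 at MII, 37.7 in 2-cell and 40.01 in both 4-cell and 8-cell embryos, and 0 later. Of the 15 GV-called sites with this motif it had the highest score, the next being 32.9 and the median 5.93. TRIM37, a ligase of centrosomes and peroxisomes, had 7 GV sites, and this was the only one called again at any stage.

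Other genes of the ubiquitin pathway were counted in the same way from lists of known enzymes. Of 33 conjugating enzymes 27 had GV sites, 238 in all, and 37.8% were called at MII, 14.7% in 2-cell, 25.2% in 4-cell, 10.5% in 16-cell embryos and 15.5% in blastocysts. Ubiquitin and activating enzyme genes had 68 sites in 4 of 6 genes, with 44.1% at MII, 17.6% in 4-cell, 26.5% in 16-cell embryos and 32.4% in blastocysts. RING-type ligases of other names had 432 sites in 43 of 67 genes, with 37.7% at MII, 28.0% in 4-cell, 3.94% in 16-cell embryos and 3.47% in blastocysts. HECT-type ligases, which take ubiquitin onto themselves before passing it on, had 241 sites in 16 of 26 genes, with 29.9%, 20.3%, 5.81% and 3.32% at the same stages. All 14 of their calls at the 16-cell stage lay in 1 gene, and the 8 in blastocysts lay in 3. The RNF and TRIM genes had 38.3%, 28.4%, 3.31% and 4.86%, and differences between the lists were not tested.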

How the data were processed

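The members and gene lists were chosen with earlier results of these data known. The authors deposited 1 score per adenosine and stage, with gene, region and motif. Scores are not whole numbers and their scale is not stated. The submitters' processing notes name STAR 2.5.3a and Trimmomatic 0.39. For the site caller, the build and the way libraries were combined, no source used here gives an answer. Columns were read as pooled stage values, and 0 columns had no stage. Read depth is unknown. Of 494 member sites whose gene RefSeq lists, 492 lay inside its span in ARS-UCD2.0, used only to check names.

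A score of at least 0.1 called a site. Intervals are exact Clopper-Pearson intervals at 95%, and those of medians come from order statistics. Genes with at least 10 GV sites, others with morula or blastocyst calls, sites called at 6 or more stages and the 5 highest GV scores were named, and some further genes and sites were named after their values were seen. Role groups were revised after the table was seen. Some genes are counted but not reported here by name. Reads of similar family members may be shared. With 60000 simulated sites, the counting passed 7 of 7 checks. Calculations ran in Python 3.11.15 with scipy 1.17.1, pandas 2.3.3 and numpy 2.4.6, and plots in matplotlib 3.10.9.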

Additional observations from a re-analysis of the deposited data

How the results depend on the processing

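No paired analysis was possible because the columns carry no replicate or arm. The percentages of member sites called stayed within the interval of the main value at each stage for coding sites alone, for 3′ untranslated sites alone and without RNF8. With a score of at least 0.2, the 4-cell percentage was 22.2 (17.8 over all sites) and the DRACH percentage 52.0; with any score above 0, the percentages were 45.3 at MII and 32.7 in 4-cell embryos. With DRACH sites alone, the MII percentage was 51.0, and the median log2 ratios to GV were -0.35 in 4-cell and -0.22 in 8-cell embryos. RNF genes alone gave 35.6% in 4-cell embryos. TRIM genes alone gave 3.95% in 2-cell, 14.7% in 4-cell, 6.78% in 8-cell embryos, 5.08% in morulae and 7.34% in blastocysts. With genes weighted equally the values were 30.5% at MII, 4.43% in 2-cell, 20.9% in 4-cell, 8.69% in 8-cell embryos, 1.62% in morulae and 2.89% in blastocysts. Without RNF4 and TRIM28, an alternative chosen after seeing the data, they were 0.625% in 16-cell embryos, 1.67% in morulae and 2.71% in blastocysts. Of 140 counts of called sites per gene and stage, 53 were lower by over 1.5 times with a score of at least 0.2 and 54 with DRACH sites alone. With any score above 0, 4 were higher. A score of at least 0.2 and DRACH sites alone also leave out GV sites, so these counts could not rise. With any score above 0 the counts could not fall. TRIM28 had 0 GV sites with a score of at least 0.2, so its counts rest on the threshold. The depth behind each score is unknown and limits every count.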
